A study of Caenorhabditis elegans with 5 samples.

Results

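The zig genes zig-1 to zig-8 of Caenorhabditis elegans encode small immunoglobulin proteins. Some of these proteins are known to hold axons and cell bodies in place after the nervous system has formed. The genes were chosen by name, as the 8 zig genes listed under axon position maintenance, among 42048 genes measured in sorted neurons. All 8 were found and passed the filter on low values. Messenger RNA of neurons sorted by fluorescence was sequenced in 3 libraries from thoc-5(wy822) mutants and 2 libraries from wildtype animals. All animals were day 1 adults grown at 16 °C, and both groups carried the transgene edIs6, known as an integrated unc-119 fusion to GFP that labels neurons broadly. THOC-5 belongs to the THO complex, which packages newly made messenger RNA for export from the nucleus. The question put to these genes is whether their transcripts are more or less abundant when thoc-5 is mutated.

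The name zig stands for the pair of immunoglobulin domains that each protein carries. Several zig genes are known to be expressed in PVT, an interneuron of the tail whose axon runs along the ventral nerve cord. In zig-3 and zig-4 mutants, axons that were laid down correctly later drift across the ventral midline. zig-5 and zig-8 are known to keep neurons of the head ganglia in position, together with the L1CAM homolog SAX-7.

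Depth was 6.80 to 8.69 M reads on genes in the mutant libraries and 10.3 M and 10.2 M in the wildtype libraries. All libraries are labelled as neurons, but the wildtype libraries, replicate 2 above all, held a much smaller share of neuronal reads. The 23 measured pan-neuronal marker genes took 2.33%, 1.61% and 2.51% of the reads in mutant replicates 1, 2 and 3, against 0.542% and 0.0592% in wildtype replicates 1 and 2. Of these markers 20 were higher in all mutant libraries than in both wildtype libraries and 1 was lower. Over the 13787 genes tested below, 30.1% were higher and 26.5% lower in this sense. Muscle markers took 1.14% to 1.49% in the mutant libraries against 3.14% and 6.03% in wildtype, and epidermis and cuticle markers 0.251% to 1.35% against 9.89% and 7.47%. Intestine markers took 0.0459% to 0.198% against 0.767% and 0.628%, and germline and oocyte markers 0.0210% to 0.0461% against 0.326% and 0.111%. Coelomocyte markers took 0.181% to 0.310% against 0.0459% and 0.0170%, and glia markers 0.00735% to 0.0128% against 0.0107% and 0.00241%, with 2 of 10 glia markers at 0 in all libraries. The exact (Clopper-Pearson) 95% interval of these shares extended at most 0.0182 percentage points to either side, which covers counting error only. The part of this difference in tissue make-up in any result below was not tested, and in such bulk samples fewer cells of a type and less RNA per cell cannot be told apart. In normalised counts thoc-5 itself, listed as Y32H12A.2, was at 78.3, 34.6 and 12.7 in mutant replicates 1, 2 and 3 and at 154 and 122.2 in wildtype (log2 fold change -2.03, SE 0.90, limma adjusted p = 0.148). It shares 63 exon bases with glrx-21 on the same strand, which had normalised counts of at most 57.4.

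The zig genes did not move as a block. In normalised counts zig-1, zig-2, zig-4, zig-5 and zig-8 were higher in all 3 mutant libraries than in both wildtype libraries, zig-6 and zig-7 were lower in all 3, and zig-3 overlapped. These directions hold for the authors' size factors: zig-1, and by 1 of 2 such scalings zig-8, turned when the libraries were scaled to pan-neuronal reads. After adjustment over all 13787 genes tested with limma, zig-5 rose and zig-7 fell, and the other 6 did not pass. Genome-wide 6.97% of tested genes were called higher and 5.92% lower, and groups that did not overlap with the mutant higher or lower made up 30.1% and 26.5%. The median log2 fold change of the 8 genes was 2.46, beside 0.13 over all genes tested, with members on either side of 0. That of the 8 genes was 1.35 without wildtype replicate 2 and 3.32 without wildtype replicate 1, and it turned to -0.63 and -0.84 when libraries were scaled to the sum or the median of pan-neuronal reads, which took the median of all genes to -2.87 and -3.07. In the authors' deposited table zig-1, zig-2, zig-5 and zig-8 were called higher and zig-7 lower, where 13.4% of all genes are called higher and 10.7% lower. DESeq2 on the recovered reads called the same 5 genes, with 13.7% of all genes higher and 10.9% lower, and edgeR's quasi-likelihood test called 0 genes (3869 at an unadjusted p below 0.05). Each log2 fold change is the difference of mean log2(normalised count + 1), the mutant mean less the wildtype mean, and a normalised count is a read count that the authors divided by a size factor for its library.

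**Figure D1:**
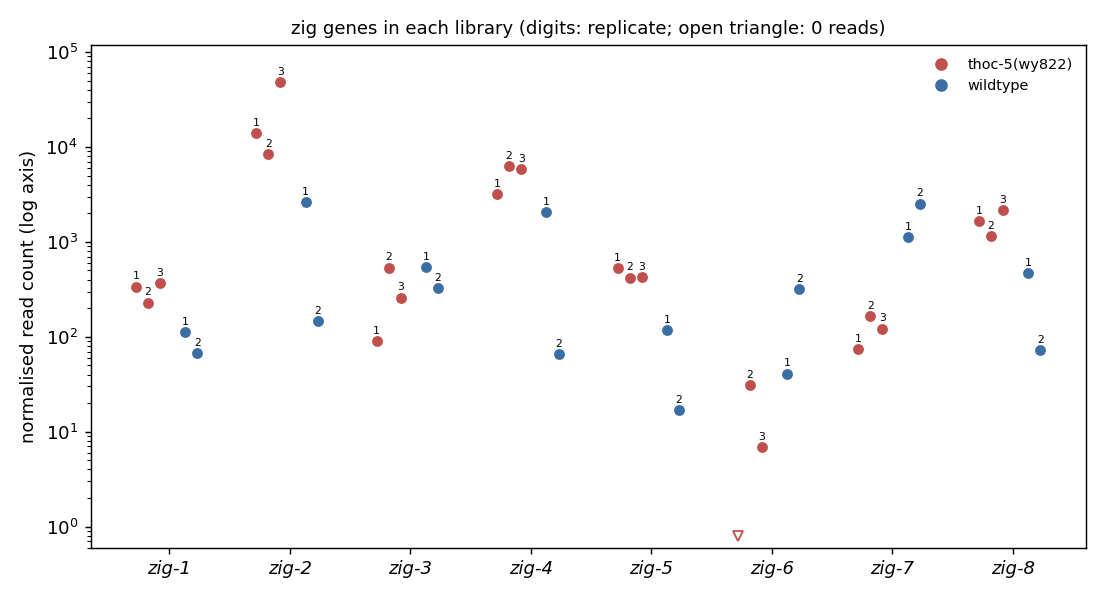
Normalised read counts of the 8 zig genes on a log axis, with thoc-5(wy822) libraries on the left and wildtype libraries on the right of each gene and the replicate number beside each point. An open triangle marks 0 reads. zig-2, zig-4, zig-5 and zig-8 lay lowest in wildtype replicate 2, while zig-7 and zig-6 lay highest there.

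zig-4 and zig-3, the genes best known for holding ventral cord axons, parted from each other. zig-4 had normalised counts of 3202, 6258 and 5887 in mutant replicates 1, 2 and 3, against 2050.4 and 65.9 in wildtype replicates 1 and 2. All mutant libraries were above both wildtype libraries, but the wildtype libraries themselves differed 31.1-fold, and the log2 fold change of 3.73 (SE 1.33) did not pass (adjusted p = 0.0934). zig-3 had 90.9, 537 and 258 in the mutant libraries, against 544 and 324 in wildtype. Here the groups overlapped, with mutant replicate 2 between the wildtype libraries, and the mutant mean lay at -0.85 on the log2 scale (SE 0.78, adjusted p = 0.465). The genes are neighbours on the X chromosome, on the plus strand with 4154 bases between them (WBcel235, zig-4 at 7925434 to 7926595 and zig-3 at 7930750 to 7931808). Within a library the scaling cancels out, but the tissue make-up does not. zig-4 had 35.2, 11.7 and 22.8 reads for each zig-3 read in mutant replicates 1, 2 and 3, against 3.77 and 0.203 in wildtype. The ratio was therefore higher in all mutant libraries than in both wildtype ones, and in wildtype replicate 2 alone zig-3 outnumbered zig-4. Most other pairs of zig genes also had ratios that did not overlap between the groups, so this is not particular to zig-4 and zig-3.

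zig-5 and zig-8, the pair tied to head ganglia, kept a narrower ratio to each other over the 5 libraries than any other pair of zig genes. zig-5 had normalised counts of 531, 421 and 424 in the mutant libraries, against 117 and 17 in wildtype. Its mutant libraries were close to one another, all lay above wildtype, and the gene rose with a log2 fold change of 3.31 (SE 0.82, adjusted p = 0.0480). zig-8 had 1662, 1157 and 2179 in the mutant libraries, against 474 and 72.2 in wildtype. All mutant libraries were again above wildtype, and the log2 fold change of 3.11 (SE 0.81) missed the threshold (adjusted p = 0.0520). The ratio of zig-5 to zig-8 reads was 0.320, 0.364 and 0.195 in mutant replicates 1, 2 and 3 and 0.247 and 0.235 in wildtype, while the highest level of either gene was 31.2 and 30.2 times its lowest. Of the 28 pairs that the 8 genes form, this pair had the narrowest range of within-library log2 ratios, 0.90, and the next was zig-4 with zig-5 at 2.23. The genes lie far apart on chromosome III (WBcel235, zig-5 at 10951119 to 10953508 on the minus strand, zig-8 at 13119820 to 13133938 on the plus strand). zig-8 shares 33 exon bases with bre-2 on the opposite strand, which had a normalised count of 79.7 in wildtype replicate 2, its highest. As the library kits do not mark strand, reads in those bases cannot be told apart. The gene strd-1, which ends 63 bases from zig-5, had normalised counts of 191, 206 and 193 in the mutant libraries, against 153 and 313 in wildtype, so it did not share the zig-5 pattern.

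zig-2 was the most abundant zig transcript in every mutant library. It had normalised counts of 13927, 8376 and 48342 in mutant replicates 1, 2 and 3, against 2626 and 148 in wildtype. All mutant libraries were higher, by 16.98 times in the ratio of means, yet mutant replicate 3 was 5.77 times mutant replicate 2 and wildtype replicate 1 was 17.8 times wildtype replicate 2. The log2 fold change of 4.83 (SE 1.31) did not pass (adjusted p = 0.0558). zig-2 lies on the X chromosome (WBcel235, 12340377 to 12341438, minus strand), 128 bases from the chemoreceptor gene srd-44, which had a normalised count of at most 2.23 in any library.

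zig-1 moved less. It had normalised counts of 338, 229 and 367 in the mutant libraries, against 113 and 66.9 in wildtype. The groups did not overlap, and the log2 fold change of 1.80 (SE 0.51) did not pass (adjusted p = 0.0593). Its position is chromosome I, 9847406 to 9850082 on the plus strand of WBcel235, where 63 exon bases are shared with ensa-1 on the opposite strand. ensa-1 had normalised counts of at most 72.1, and the library kits named in the labels do not mark strand, so reads in those shared bases cannot be told apart.

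zig-7 and zig-6 were lower in the mutant libraries. zig-7 had normalised counts of 74.4, 166 and 121.8 in mutant replicates 1, 2 and 3, against 1114 and 2529 in wildtype. It fell by 3.86 on the log2 scale (SE 0.57, adjusted p = 0.0382), with wildtype replicate 1 at 6.70 times the highest mutant library. It lies on chromosome I (WBcel235, 4790644 to 4792483, minus strand), and the ribosomal protein gene rpl-41.2 on the opposite strand ends with 1 base between them. No row of the table was matched to rpl-41.2, so its level is not given. Reads that cross from either gene into the other cannot be told apart without strand, and their part in the zig-7 values was not tested. zig-6 was rare, with no read in mutant replicate 1, 28 and 7 reads in mutant replicates 2 and 3, and 47 and 300 reads in wildtype. A count of 0 in mutant replicate 1 allows up to 0.408 reads in every 1000000. In normalised counts zig-6 was at 0, 31.3 and 6.82 in the mutant libraries against 41.0 and 319 in wildtype, and the log2 fold change of -4.20 (SE 1.70) did not pass (adjusted p = 0.123). This log2 fold change rests in part on the added 1: with 0.5 or 8 added instead it was -4.56 or -2.92. The zig-6 gene is on the X chromosome (WBcel235, 5186916 to 5189077, minus strand). Both genes were highest in wildtype replicate 2, the library with the most muscle marker reads and the fewest pan-neuronal reads. Epidermis, intestine and germline markers took larger shares in wildtype replicate 1 than there. Whether tissue make-up has a part in these values was not tested.

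Both calls were lost when any library but wildtype replicate 1 was left out. Without any 1 of the mutant libraries, or without wildtype replicate 2, limma called none of the 8 genes (and no gene at all, with 3415 to 4702 genes at an unadjusted p below 0.05). Without wildtype replicate 1 only 1 wildtype library was left, so the calls of that fit are not listed by gene. The median log2 fold change of all genes was then 0.10. The log2 fold changes of zig-2 and zig-4 were 2.76 and 1.26 without wildtype replicate 2 and 6.90 and 6.20 without wildtype replicate 1. Those of zig-5 and zig-8 were 1.95 and 1.77 without wildtype replicate 2, and 4.67 and 4.46 without wildtype replicate 1. zig-6 was at -2.73 without wildtype replicate 2, -2.87 without mutant replicate 1 and -5.66 without wildtype replicate 1, and zig-3 lay between -1.45 and -0.17 with any 1 library left out. zig-7 stayed between -4.45 and -3.27 with any 1 library left out.

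The make-up of zig reads differed between libraries. The 8 genes together took 3441, 2264 and 6802 of every 1000000 reads on genes in mutant replicates 1, 2 and 3, against 787 and 326 in wildtype. zig-2 made up 70.2%, 48.8% and 83.9% of these reads in the mutant libraries, against 37.1% and 4.17% in wildtype. zig-4 made up 16.2%, 36.4% and 10.2% in the mutant libraries, against 29.0% and 1.86%. For zig-7 the shares were 0.375%, 0.968% and 0.212% in the mutant libraries, against 15.7% and 71.4%. zig-7 was thus the main zig transcript of wildtype replicate 2, a place held by zig-2 in the other 4 libraries. The widest exact (Clopper-Pearson) 95% interval of these shares, that of zig-7 in wildtype replicate 2, ran from 69.8% to 72.9%.

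**Figure D2:**
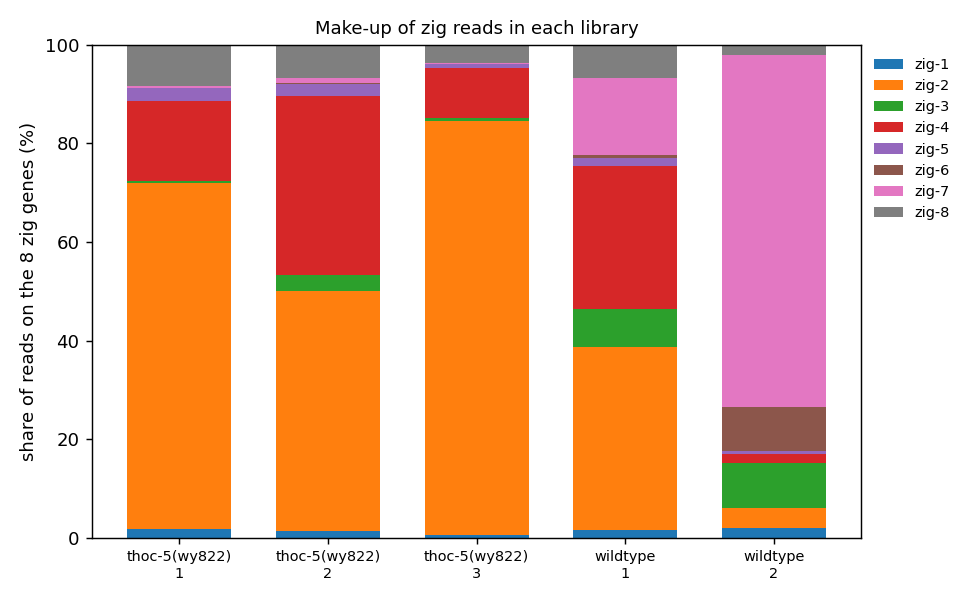
Share of the reads on the 8 zig genes that belongs to each gene, as stacked bars in percent, for 3 thoc-5(wy822) and 2 wildtype libraries. zig-2 fills 48.8% to 83.9% of the mutant bars, and zig-7 fills 71.4% of wildtype replicate 2.

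Levels between genes were compared per kilobase of exon in WBcel235, with exons of 747 bases in zig-7 to 1039 bases in zig-4. In each mutant library the order began with zig-2, then zig-4, then zig-8. Mean normalised counts per kilobase in the mutant were 24428 ± 22459 for zig-2, 4924 ± 1605 for zig-4, 1712 ± 525 for zig-8 and 462 ± 63.2 for zig-5 (SD, n = 3). Next came zig-3 at 308 ± 235.2, zig-1 at 305 ± 71.7 and zig-7 at 162 ± 61.5, and zig-6 was last at 13.5 ± 17.4. zig-3 could not be separated from zig-1, zig-5 or zig-7 beyond the spread between libraries. Wildtype replicate 1 began with zig-2, zig-4 and zig-7 at 2724, 1973 and 1491 per kilobase. Wildtype replicate 2 began with zig-7 at 3385, followed by zig-3 and zig-6 at 338.3 and 338.0. The wildtype libraries therefore shared no common order, and their mean ranks are not read further.

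Set against neuronal reads, the picture changed. For each library the reads of each zig gene were divided by the summed reads of the 23 pan-neuronal markers, which leave out unc-119 because the transgene carries its sequence. With 3 against 2 libraries the exact two-sided permutation test cannot go below p = 0.1, so none of these 8 tests could pass the threshold. Over all tested genes 7.35% were higher in every mutant library on this scale and 59.8% lower in every mutant library.

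**Figure D3:**
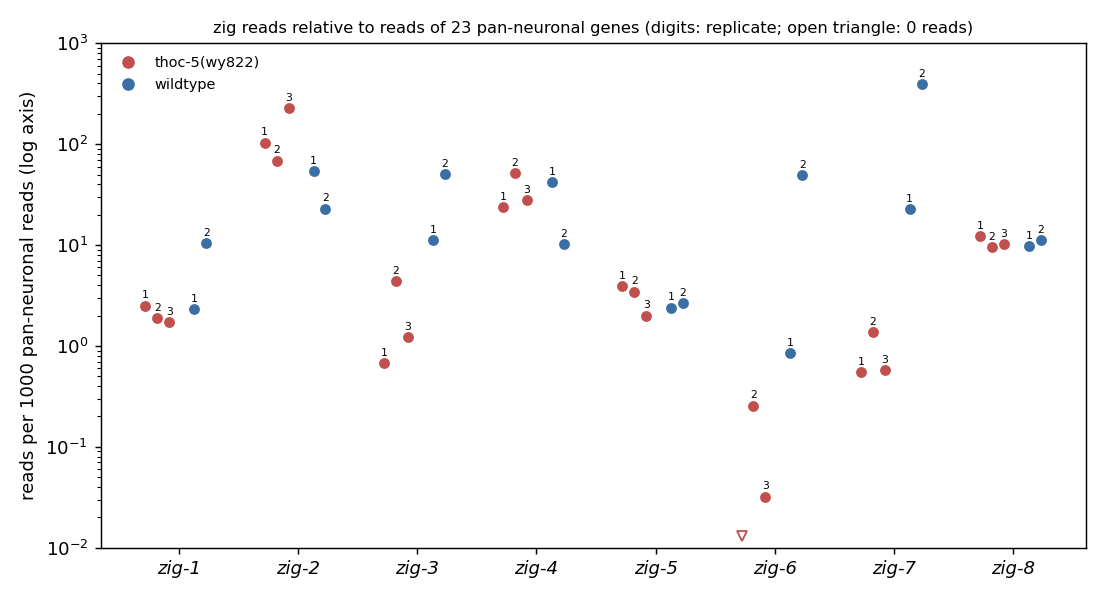
Reads of each zig gene per 1000 reads of the 23 pan-neuronal genes, on a log axis, for thoc-5(wy822) libraries on the left and wildtype libraries on the right of each gene. An open triangle marks 0 reads. zig-8 lies between 9.50 and 12.4 in all 5 libraries, while zig-7 spans 0.553 to 393.

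On this scale zig-8 was nearly level. It had 12.4, 9.50 and 10.3 reads per 1000 pan-neuronal reads in mutant replicates 1, 2 and 3, against 9.72 and 11.2 in wildtype. The groups overlapped, at 10.7 ± 1.48 in the mutant (SD, n = 3) and 10.5 ± 1.07 in wildtype (SD, n = 2; exact permutation p = 0.9). zig-5 had 3.95, 3.45 and 2.00 in the mutant libraries against 2.399 and 2.64 in wildtype, also with overlap (exact permutation p = 0.5). zig-4 had 23.8, 51.4 and 27.7 in the mutant libraries against 42.1 and 10.2 in wildtype (exact permutation p = 0.7), and its wildtype libraries lay on either side of most mutant ones. The marker sum itself, in normalised counts, was 7.57 times higher in wildtype replicate 1 than in wildtype replicate 2. By the same comparison zig-5 and zig-8 were 6.87 and 6.55 times higher, zig-2 and zig-4 17.8 and 31.1 times, and zig-1 and zig-3 each 1.68 times. zig-6 and zig-7 were lower in wildtype replicate 1 than in wildtype replicate 2.

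zig-2, alone among the 8, was higher per pan-neuronal read in each mutant library than in both wildtype ones. It had 103.5, 68.7 and 228 reads per 1000 in mutant replicates 1, 2 and 3, against 53.9 and 22.97 in wildtype, 3.47 times as much on average (exact permutation p = 0.2). zig-3 had 0.675, 4.41 and 1.22 in the mutant libraries against 11.2 and 50.4 in wildtype (exact permutation p = 0.1). Its groups, which overlapped in normalised counts, no longer did so. zig-6 had 0, 0.257 and 0.0321 in the mutant libraries against 0.842 and 49.6 in wildtype (exact permutation p = 0.1). zig-7 had 0.553, 1.37 and 0.574 against 22.9 and 393 (exact permutation p = 0.1). zig-1 had 2.52, 1.88 and 1.73 in the mutant libraries against 2.31 and 10.4 in wildtype (exact permutation p = 0.2), so that wildtype replicate 2 alone was far above the rest.

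When all libraries were rescaled to the same pan-neuronal sum and limma was fitted again, the median log2 fold change of all genes became -2.87, and 1.15% of genes were called higher and 38.5% lower. zig-3, zig-6 and zig-7 were then called lower, at log2 fold changes of -3.93 (SE 1.29, adjusted p = 0.0111), -6.80 (SE 1.76, adjusted p = 0.00123) and -6.94 (SE 1.28, adjusted p = 4.9e-06), and no zig gene was called higher. zig-2 was at 1.74 (adjusted p = 0.243), zig-4 at 0.64, zig-5 at 0.26 and zig-8 at 0.03, and zig-1 turned to -1.28 (adjusted p = 0.423). Such scaling divides each library by a single factor and so shifts nearly all genes alike. Values read against the median of all genes therefore had to change little, and they give no further support. zig-5 lay 3.18 above that median with the authors' size factors and 3.12 above it with the pan-neuronal scaling. zig-7 lay at -3.99 and -4.07, and zig-6 at -4.32 and -3.93.

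**Figure D4:**
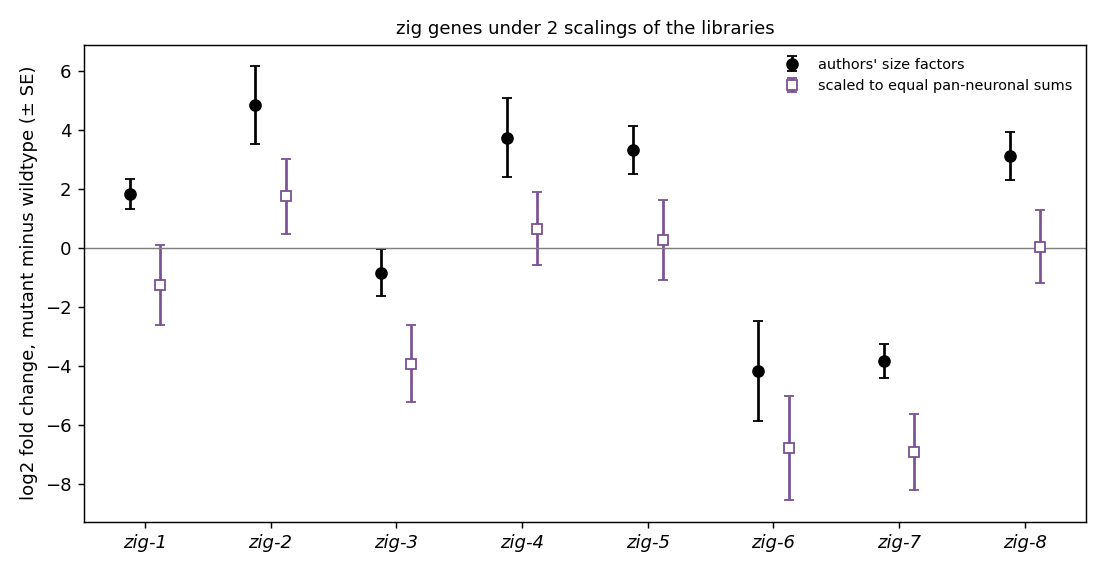
Log2 fold change of each zig gene, mutant minus wildtype, with its standard error from limma, with the authors' size factors (filled) and with libraries scaled to equal pan-neuronal sums (open). zig-5 and zig-8 move to 0.26 and 0.03 under the second scaling, zig-2 stays positive at 1.74, and zig-7 lies at -3.86 under the first and -6.94 under the second.

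Partners of the zig proteins were examined next. SAX-7 is a cell adhesion protein of the L1CAM family whose loss, like the combined loss of zig-5 and zig-8, lets neurons shift, and DIG-1 is a giant extracellular protein needed to keep axons in place. Of 8 measured maintenance partners 2 rose and none fell, where 6.97% of all tested genes rose and 5.92% fell. Their median log2 fold change was 0.82 with the authors' size factors and turned to -2.20 with the pan-neuronal sum scaling. sax-7 rose, with normalised counts of 5805, 11497 and 11459 in the mutant libraries against 2308 and 1062 in wildtype (log2 fold change 2.55, SE 0.59, adjusted p = 0.0449). dig-1 rose too, at 4963, 18147 and 10642 in the mutant libraries against 1620.5 and 1553 in wildtype (log2 fold change 2.63, SE 0.64, adjusted p = 0.0477). The ankyrin gene unc-44, whose protein binds SAX-7 inside the cell, was higher in every mutant library without passing (log2 fold change 1.86, SE 0.58, adjusted p = 0.0715). When scaled to pan-neuronal reads, all 3 turned to below 0, at -0.55, -0.46 and -1.24, a scaling that by itself took the median of all genes to -2.87.

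Among 3 measured later zig genes none passed in limma with the authors' size factors. zig-10, known to help maintain synapse density, had normalised counts of 117, 69.2 and 64.3 in the mutant libraries against 13.95 and 0 in wildtype (log2 fold change 4.399, SE 1.30, adjusted p = 0.0645). zig-9 and zig-12 were lower in every mutant library, as were 26.5% of all tested genes. Their log2 fold changes were -4.69 (adjusted p = 0.0665) and -2.50 (adjusted p = 0.0589). zig-9 had no read in mutant replicates 1 and 3, and its value rests in part on the added 1. So does that of zig-10, which had no read in wildtype replicate 2. With 0.5 or 8 added in place of 1, zig-10 was at 4.91 or 2.74 in limma. Scaled to the pan-neuronal sum, zig-9 and zig-12 were called lower, at -6.81 and -5.55, where 38.5% of all tested genes were called lower. zig-10 was at 3.00 on that scale and did not pass. The authors' own DESeq2 results called zig-10 higher and zig-12 lower, beside 13.4% and 10.7% of all genes.

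Of 26 other immunoglobulin-domain or guidance receptor genes, 3 rose and none fell, where 6.97% of all tested genes rose and 5.92% fell. Their median log2 fold change was 2.33 with the authors' size factors and turned to -0.75 with the pan-neuronal sum scaling, beside 0.13 and -2.87 over all genes. wrk-1, which encodes a midline guidance protein, had the smallest p of the list and rose, at 822, 1000.1 and 763 in the mutant libraries against 138 and 123 in wildtype (log2 fold change 2.71, SE 0.40, adjusted p = 0.0382). clr-1, a receptor tyrosine phosphatase that opposes the FGF receptor EGL-15, rose by 2.11 (adjusted p = 0.0477), and the L1CAM-like gene lad-2 by 5.07 (adjusted p = 0.0484). The calls of these 3 genes, of sax-7 and of dig-1 were each lost without any 1 mutant library or without wildtype replicate 2. lad-2 lay at 2.80 on the log2 scale without wildtype replicate 2 and at 7.35 without wildtype replicate 1. Scaled to pan-neuronal reads, lad-2 stayed above 0 at 2.07 and wrk-1 and clr-1 turned to -0.38 and -0.98.

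**Figure D5:**
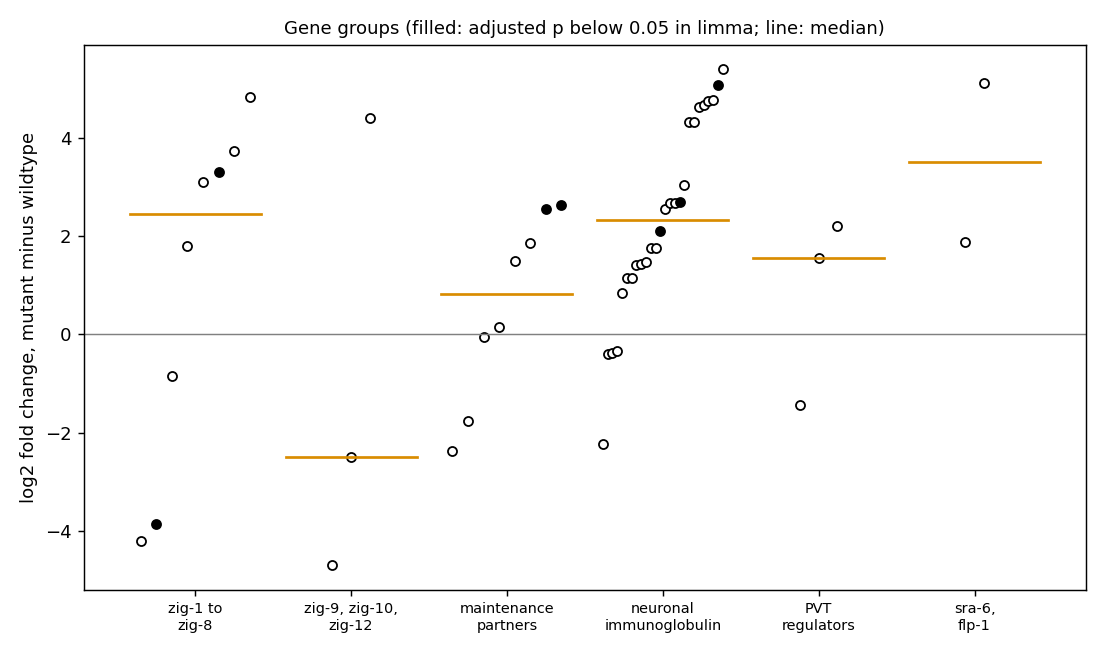
Log2 fold change, mutant minus wildtype, of each gene tested in the zig family and in 5 groups of related genes, with filled points for genes that passed the limma test and a line at each group's median. The zig family spans -4.20 to 4.83 around a median of 2.46.

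With the authors' size factors, transcription factors known to act on zig genes in PVT showed no common direction. The LIM homeobox gene lim-6 had normalised counts of 296, 473 and 401 in the mutant libraries against 373 and 2912 in wildtype (log2 fold change -1.44, SE 0.85, adjusted p = 0.256), and its sign turned to 0.04 without wildtype replicate 2. The LIM homeobox gene ceh-14 was at 52.1 ± 4.41 in the mutant (SD, n = 3) and 23.1 ± 22.9 in wildtype (SD, n = 2; log2 fold change 1.56, adjusted p = 0.267). lin-14, a timing factor, was higher in all mutant libraries, at 176, 165 and 121 against 30.5 and 34.0 in wildtype (log2 fold change 2.20, SE 0.57, adjusted p = 0.0518). None of the 3 passed with these size factors. Scaled to the pan-neuronal sum, all 3 lay below 0, with ceh-14 at -1.46, lim-6 at -4.54 and lin-14 at -0.85. The median of all genes was then -2.87. lim-6 was called lower on that scale (limma adjusted p = 0.00219), where 38.5% of all tested genes were called lower.

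The gene whose pattern was most like that of zig-2 was flp-1, a neuropeptide gene known as a marker of the AVK interneurons. flp-1 had normalised counts of 24760 in mutant replicate 1, 10236 in mutant replicate 2 and 48100.3 in mutant replicate 3, against 2919 and 148 in wildtype. On the log2 scale it was 5.13 higher in the mutant (SE 1.31, limma adjusted p = 0.0504), and 2.98 higher without wildtype replicate 2 and 7.27 higher without wildtype replicate 1. There were 0.562, 0.818 and 1.005 zig-2 reads for each flp-1 read in mutant replicates 1, 2 and 3, against 0.900 and 1.00 in wildtype, over a 327-fold range of zig-2 itself. Euclidean distances were taken between log2 profiles centred on their mean over the 5 libraries. Among 8987 other tested genes with a mean of 50 or more, flp-1 had the smallest, 0.69. Close behind were twk-3 (0.77) and odr-2 (0.84). The chemoreceptor gene sra-6, a marker of PVQ and of head sensory neurons, was at 19.6, 2.23 and 14.6 in the mutant libraries against 2.62 and 1.06 in wildtype (log2 fold change 1.89, adjusted p = 0.299).

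By the same measure the nearest gene was unc-37 for zig-1 (distance 0.11), dop-5 for zig-5 (0.087), srb-16 for zig-4 (0.18) and the synaptotagmin gene snt-3 for zig-8 (0.21). Farther off were the glutamate transporter gene glt-3 for zig-3 (0.49) and the cytochrome P450 gene cyp-33C3 for zig-7 (0.46). The G protein gene gpa-12 was nearest to zig-6 (0.99). Of all members only zig-6 had a nearest gene farther away than flp-1 was from zig-2. The mean profile of all 8 zig genes, in which opposite movements cancel, was nearest to math-33, B0393.9, M01E5.3, sup-26 and C13G3.1, at distances of 0.24 to 0.44, and none of these passed the test. These likenesses rest on 5 libraries and describe these libraries only. The search for each member separately was added after its values were seen.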

How the data were processed

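Per the labels' protocols, cDNA was made from polyadenylated RNA with the SMARTer v4 kit and libraries with Nextera XT, which mark no strand. The submitters' processing notes name Trim Galore, STAR 2.4.2a, DESeq2 and genome build ce10; of the read counter and the gene annotation the sources used here say nothing. In the deposited table of 42048 genes each library has a signal, the gene counts divided by a size factor of that library, as the values show. The authors' log2 fold changes with standard errors, test scores and p-values stand beside them, per the file headers. All nonzero values (100%) were whole multiples of 1 read within 1e-04 reads, so reads were recovered for shares, ratios and count tests. On these, 0 genes passed in edgeR, against 2070 higher and 1642 lower in DESeq2.

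limma 3.58.1 (R 4.3.3; lmFit, then eBayes with trend) was fitted to log2(normalised count + 1) over the 13787 genes that reached 10 in at least 2 libraries. P-values are two-sided, adjusted by Benjamini-Hochberg over all genes, with a threshold of 0.05. Alternatives were edgeR 4.0.16, DESeq2 1.42.0, pseudocounts of 0.5 and 8, other filters and scalings, a replicate block, and each library left out; with 1 wildtype library left, it is assumed to vary like the mutant ones. The labels do not say that libraries of a group are separate cultures, so the p-values reflect only how these samples vary, possibly for technical reasons. Members and lists were chosen with earlier results of these data known. Named genes are the 8 members, thoc-5, all members of lists of 4 or fewer, the 3 with the smallest p in longer lists, and the 5 nearest to the mean zig profile; neighbouring genes and the nearest gene of each member were named after their values were seen. Positions and exon lengths are from the Ensembl annotation of WBcel235, by name or sequence name; the table holds 145 of the 147 entries of the lists. Intervals cover counting error only, as reads carry no molecular identifiers.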

Additional observations from a re-analysis of the deposited data

How the results depend on the processing

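With the pan-neuronal scalings set aside, all 8 zig genes kept their direction in all 15 other alternatives (14 for zig-6, which a filter of 50 removed), while calls moved. As reported, limma called 961 genes higher and 816 lower, with zig-5, 2 maintenance partners and 3 immunoglobulin genes among the higher and zig-7 among the lower. edgeR and the fit with a replicate block called 0 genes, none of the zig or other listed genes among them (3869 and 3951 at an unadjusted p below 0.05, and 5633 for DESeq2). Same-numbered libraries deviated together at r = 0.01 and 0.11, which does not show that the numbers pair them. A pseudocount of 0.5 called 662 genes higher and 568 lower, with 0 zig genes, 0 partners and 1 immunoglobulin gene higher. No filter called 533 and 546, also with 0 zig genes, 0 partners and 1 immunoglobulin gene higher. A pseudocount of 8 called 1737 and 1480, with 4 zig, 13 immunoglobulin and 1 later zig gene higher and 2 later zig genes lower, and 1 PVT regulator and flp-1 higher. A filter of 50 called 854 higher and 700 lower of 9766 genes, with 5 immunoglobulin genes, 1 regulator and flp-1 higher. Upper quartile scaling called 1120 and 1015, with 3 zig and 6 immunoglobulin genes and flp-1 higher. Quantile scaling called 1595 and 1399, with 3 zig, 10 immunoglobulin and 1 later zig gene, 1 regulator and flp-1 higher and 2 later zig genes lower. DESeq2 (2070 and 1642) and the authors' deposited table (2063 and 1654) each called 4 zig, 12 immunoglobulin and 1 later zig gene, 1 regulator and flp-1 higher, and 1 later zig and 1 immunoglobulin gene lower. Leaving out libraries gave 0 to 2167 genes higher and 0 to 480 lower, with 0 to 4 zig, 0 to 15 immunoglobulin, 0 to 1 partner, 0 to 1 later zig gene and 0 to 1 of flp-1 and sra-6 higher, and 0 to 1 zig gene and 0 to 1 regulator lower. thoc-5 lay between -2.65 and -1.38.

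Scaling to pan-neuronal reads changed most. By their sum 158 genes were higher and 5307 lower, and by their median, an alternative added after seeing the data, 173 and 6675, which moved the median of all genes to -2.87 and -3.07. Under both 0 zig genes, partners and immunoglobulin genes were higher, 3 zig genes, 2 later zig genes and 1 regulator were lower, and 3 and 4 partners and 2 and 3 immunoglobulin genes were lower. thoc-5 passed, at -5.03 and -5.25. Reversed by sum and by median were zig-1 (-1.28 and -1.49), sax-7 (-0.55 and -0.76), dig-1 (-0.46 and -0.68), unc-44 (-1.24 and -1.45), wrk-1 (-0.38 and -0.60), clr-1 (-0.98 and -1.20), ceh-14 (-1.46 and -1.66), lin-14 (-0.85 and -1.06), sra-6 (-0.53 and -0.69), math-33 (-2.10 and -2.31), B0393.9 (-2.01 and -2.23), M01E5.3 (-2.25 and -2.47), sup-26 (-2.43 and -2.64) and C13G3.1 (-2.25 and -2.46), and by median only zig-8 (-0.19). Without wildtype replicate 2, lim-6 was at 0.037 and sup-26 at -0.0094, within ranges over left-out libraries of -2.92 to 0.037 and -0.0094 to 1.33.

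The log2 ratio per pan-neuronal read, with any 1 library left out, was -2.35 to -0.18 for zig-1, 1.16 to 2.54 for zig-2, -5.02 to -2.41 for zig-3, -0.30 to 1.74 for zig-4, 0.11 to 0.55 for zig-5, -10.62 to -3.13 for zig-6, -8.89 to -4.78 for zig-7 and -0.085 to 0.14 for zig-8. With total reads as the denominator zig-1 was at 2.24. Adding unc-119 turned no sign. Beyond the fewer samples of some fits, the cause of these shifts was not tested. Depth limits zig-6 most, with 0 to 28 reads in mutant libraries.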
